A study of Mus musculus with 15 samples.

Results

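The contacts of the Pparg gene in a B lymphocyte cell line were set against its contacts in 3T3-L1 cells, with 4C-seq (circular chromosome conformation capture read by sequencing). The libraries are all those that the labels give the Pparg bait, 5 of the series' 15 samples and 9 of its 27 libraries. Of these, 1 is the B cell library and 8 are 3T3-L1 libraries, 2 replicates each at days 0, 1, 2 and 6. 3T3-L1 is a mouse fibroblast line that becomes adipocytes when induced. Cells past confluence, named day 0, were given dexamethasone, 3-isobutyl-1-methylxanthine, insulin and fetal calf serum, and had insulin renewed on day 2. The labels call day 0 preadipocyte, days 1 and 2 intermediate and day 6 mature adipocyte. For the B cell line they give no time, stage or treatment, and neither line carries a named genetic change. The B cell line has no replicate. Whether the 3T3-L1 replicates were grown apart is not stated, so every p-value rests on a spread between libraries that may be technical. As the assay reads DNA and not RNA, the cell types could not be checked against marker genes.

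In 4C-seq, chromatin is fixed, cut with a restriction enzyme and ligated, so that sites close to the bait in the nucleus are joined to it more often. Pparg encodes the nuclear receptor PPARγ, the central regulator of fat cell formation. Around most genes contact falls with distance along the chromosome, first within the gene's own domain and then over stretches of active and inactive chromatin that tend to meet others of their own kind.

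Cells had been fixed with 2% formaldehyde for 10 min and cut with HindIII, and the deposited values are whole read counts at 823355 HindIII sites of the mouse build mm9. The bait site lies at chr6:115369246-115369251, and the sites within 10 kb of it, 5 with the bait, were left out, which leaves 37118 sites on its low-coordinate side and 10484 on its high-coordinate side. Chromosome 6 is much longer on the low side, from 3000082 to the bait, than on the high side, which ends at 149516111. In RefSeq's gene order for the build GRCm38.p6, Timp4 (an inhibitor of matrix metalloproteinases), Syn2 (a synaptic vesicle protein) and Tamm41 come next on the low side.

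Libraries held 116031 to 2551475 reads, of which 42081 to 2040636 lay outside the bait zone, and the B cell library had 126822 there. The day 1 replicate 2 and day 6 replicate 2 libraries were shallower than that. A captured site is one with at least 1 read, and deeper libraries capture more of them. Captured sites are therefore given at B cell depth, for which the 6 deeper 3T3-L1 libraries were thinned to 126822 reads and the 2 shallower ones stayed whole. The chromosome 6 reads of the 6 then numbered 91510 to 102700, against 104800 in B cells. At B cell depth the 3T3-L1 libraries captured 2942 to 9105 sites of chromosome 6 (median 5830), and the B cell library captured 9683. Captured sites are also given with every library thinned to about 2942 of them, called equal numbers of captured sites. Counts and tests of captured sites in single chromosome 6 windows of 100 kb instead use all reads, without thinning. Reaching that number took 8169 chromosome 6 reads in B cells and 11110 to 33087 in 3T3-L1. Before thinning, a captured chromosome 6 site held 10.8 reads on average in B cells and 9.72 to 114 in 3T3-L1. On other chromosomes it held 2.93 in B cells, below the 4.12 to 19.9 of all 8 3T3-L1 libraries. The share of reads that lay on the bait site itself was 14.0% in B cells and 5.83% to 61.4% in 3T3-L1. The part of these differences in the results was not tested.

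In B cells a larger share of the bait's chromosome 6 reads lay at distances of 1 to 20 Mb, and a smaller share in its own neighbourhood and at the far end of the chromosome. There the B cell library held 27.9% of its chromosome 6 reads, with a 95% Wilson interval of 27.6% to 28.2%. Intervals on shares of reads cover counting error only, since PCR copies are not separate molecules. The 8 3T3-L1 libraries held 13.5% at the lowest, 15% at the median and 17.3% at the highest there, with a mean of 15.1% ± 1.37 (SD, n = 8). The groups did not overlap, and the exact two-sided permutation test gave p = 0.111, the smallest that 1 library against 8 can give. No such comparison of single shares can pass 0.05 in this design. Taken over all reads outside the bait zone, 23.1% of the B cell reads lay at 1 to 20 Mb, against 9.95% to 12.3% in 3T3-L1.

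At the far end of the chromosome the difference had the other sign. Over 60 Mb away, which is possible on the low side only, the B cell library held 3.84% of its chromosome 6 reads, with a Wilson interval of 3.73% to 3.96%. In 3T3-L1 this share was 4.84% at the lowest, 6.45% at the median and 7.61% at the highest, so that B cells lay below all 8 libraries. Over 20 Mb away in all, the share was 17.9% in B cells and 14.4% to 20.3% in 3T3-L1, and the groups overlapped.

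Band by band, the B cell library lay outside the range of all 8 3T3-L1 libraries in 10 of 12 bands of distance and side (83.3%), above it in 5 and below it in 5. The bands below were all nearer than 1 Mb and the bands above all beyond it. Captured sites divided otherwise, with B cells above all 8 in 6 bands and below in 0 at B cell depth, and above in 3 and below in 5 at equal numbers of captured sites. On the low side, 1 to 3 Mb away, B cells held 7.23% of chromosome 6 reads against 2.32%, 2.82% and 3.50% in 3T3-L1 (lowest, median and highest). At 3 to 10 Mb on that side they held 3.53% against 0.755%, 1.20% and 1.35%. The corresponding bands of the high side differed by less. At 1 to 3 Mb there, B cells held 4.54% against 2.45%, 3.41% and 3.85%, and at 3 to 10 Mb they held 4.34% against 3.01%, 3.60% and 3.87%. At equal numbers of captured sites the B cell library lay within the 3T3-L1 range in both of these high-side bands, with 34.9% of sites captured against 30.4% to 37.5% and 12.3% against 10.6% to 13.4%. On the low side it stayed above all 8 under that measure, with 38.5% against 26.8% to 35.1% at 1 to 3 Mb and 8.70% against 2.89% to 5.35% at 3 to 10 Mb. The low side thus held less than the high side at 3 to 10 Mb in every library, and the B cell sides were closer to each other, over 2356 sites on the low side and 1994 on the high side.

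**Figure D1:**
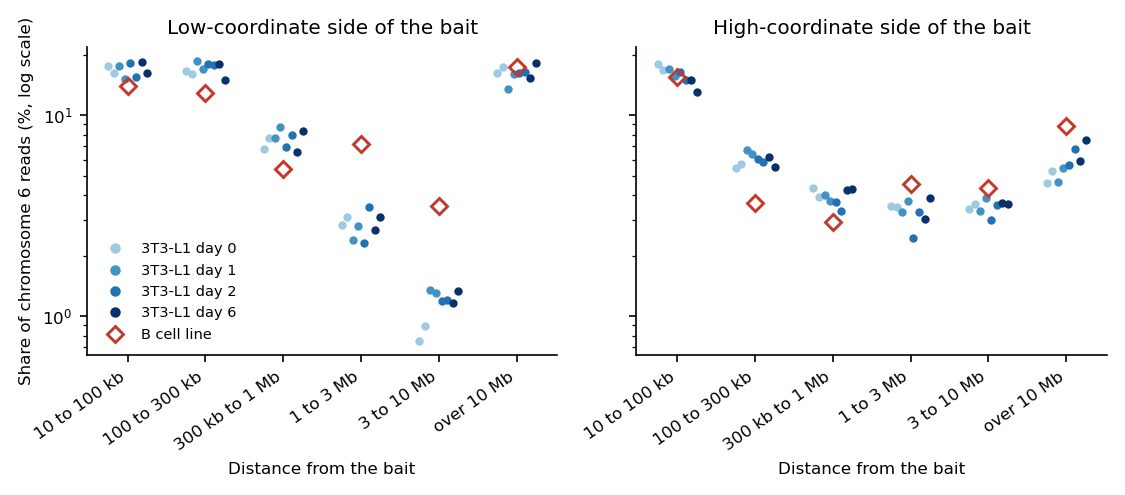
Share of chromosome 6 reads (percent, log scale) in 6 bands of distance on each side of the Pparg bait. Circles are the 8 3T3-L1 libraries, coloured by day, and the open diamond is the B cell library, which holds 7.23% and 3.53% at 1 to 3 and 3 to 10 Mb on the low side and lies above every circle there.

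Nearer than 1 Mb, 5 of the 6 bands held a smaller share of reads in B cells. At 10 to 100 kb B cells held 14% of chromosome 6 reads on the low side, against 15.1%, 16.9% and 18.4% in 3T3-L1 (lowest, median, highest). On the high side that band overlapped, with 15.4% in B cells inside the 3T3-L1 range of 13% to 17.9%. At 100 to 300 kb on the low side B cells held 12.9% of chromosome 6 reads, against 15%, 17.4% and 18.6% in 3T3-L1, and on the high side 3.67% against 5.49%, 5.95% and 6.70%. At 300 kb to 1 Mb the values were 5.39% against 6.58%, 7.72% and 8.76% on the low side and 2.94% against 3.32%, 3.95% and 4.36% on the high side. The 4 bands from 100 kb to 1 Mb did not overlap between the lines. These are shares of the chromosome's reads and fall where other bands gain. As a share of all reads, the stretch within 1 Mb held 44.8% in B cells and 42.4% to 57.9% in 3T3-L1, which overlapped.

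The whole chromosome gained in sites as well as in reads. B cells had captured 20.3% of its sites (Wilson interval 20% to 20.7%), and the 6 deeper 3T3-L1 libraries, thinned to its depth, 9.57%, 14.8% and 19.1% (lowest, median, highest), which did not overlap. The 2 shallower libraries, left whole, bring the lowest to 6.18%. Over all 8 libraries the exact two-sided permutation test gave p = 0.222 (n = 1 and 8). With every library thinned to the 28587 chromosome 6 reads of the poorest, a check added after the data were seen, the expected share was 12.6% in B cells and 5.88%, 8.10% and 11% in 3T3-L1, again without overlap (exact two-sided permutation p = 0.111, n = 1 and 8). The balance of the sides barely moved: the low side held 60.2% of B cell reads (Wilson interval 59.9% to 60.5%) and 60.6% to 62.8% of 3T3-L1 reads, with an exact permutation p of 0.222 (two-sided, n = 1 and 8). Counted over sites more than 1 Mb away, the low side held 61.3% in B cells and 60.1% to 63.9% in 3T3-L1, and the groups overlapped.

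Fewer windows were left without a captured site in B cells than in 3T3-L1. Libraries differed in reads per captured site, and the part of this in the counts was not tested. Of 191 windows of 100 kb lying 1 to 20 Mb away on the low side, B cells left 0 without a captured site, while the 6 deeper 3T3-L1 libraries, thinned to its depth, left 3, 18.5 and 34 empty (lowest, median, highest). With 28587 chromosome 6 reads in every library the expected number was 1.5 in B cells and 14.4, 44.6 and 60.1 in 3T3-L1. With equal numbers of captured sites B cells left 20 empty, against 37, 47.5 and 91. On the high side, B cells left 4 of 191 empty against 11, 25.5 and 39 in the 6 deeper libraries, and 27 against 39, 48 and 62 at equal numbers of captured sites. At 28587 reads it was 10.1 against 21.3, 41.1 and 53.3. In none of these counts did the groups overlap. From 20 to 60 Mb on the low side B cells left 144 of 401 empty at equal numbers of captured sites, against 157, 177 and 192. The groups did not overlap there either. At equal numbers of captured sites the B cell sites were thus spread over more windows, and not only within 20 Mb of the bait.

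**Figure D2:**
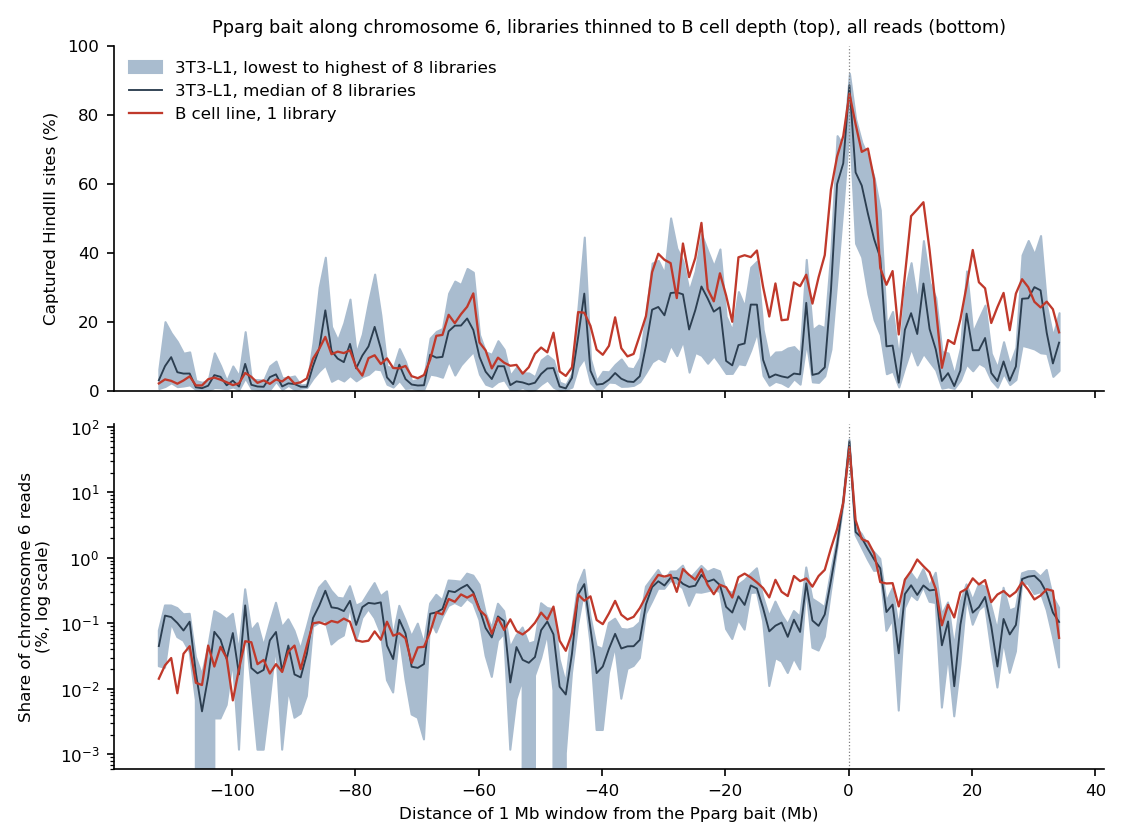
Percent of HindIII sites captured (top, libraries thinned to B cell depth) and share of chromosome 6 reads (bottom, percent on a log scale) in 1 Mb windows, by distance from the Pparg bait. The red line is the B cell library, the dark line the median and the shaded band the range of the 8 3T3-L1 libraries, and a band that reaches the bottom axis includes libraries at 0. Of the 40 windows within 20 Mb the red line lies above the band in 30 (top) and 26 (bottom), and of the 52 over 60 Mb away in 10 and 2, with 0 and 14 below it.

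In single windows, the B cell line was lower close to the bait on both sides, and on the low side it was higher just beyond. Reads in windows of 100 kb were tested with edgeR's quasi-likelihood test (B cells minus the mean of the 4 days), and 12 of 1376 windows passed after Benjamini-Hochberg adjustment (0.872%), 3 higher in B cells (0.218%) and 9 lower (0.654%). The 1 B cell library is assumed there to vary like the 3T3-L1 libraries. Within 1 Mb, 4 of 10 windows on the low side and 3 of 10 on the high side were lower and 0 were higher, and 9 of 10 on each side had a difference below 0. The median log2 difference of these windows was -1.01 on the low side and -0.91 on the high side, beside 0.06 over all tested windows. Scaled by library totals in place of TMM, 18 windows were higher and 9 lower, around a median log2 difference of 0.59. DESeq2 called 25. Single libraries moved the count: leaving out replicate 1 of day 0 or replicate 2 of day 1 gave 7 windows each, and leaving out replicates 1 and 2 of day 6 in turn gave 28 and 25. B cells lay outside the range of all 8 libraries in 403 of 1376 windows (29.3%). Any single library lies outside the range of the rest in some windows, and how often a 3T3-L1 library did so was not counted.

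The 7 lower windows near the bait lie at 114.7 to 115.0, 115.2 to 115.3 and 115.6 to 115.9 Mb. In the window from 115.2 Mb, the nearest of them, B cells had 51080 CPM (counts scaled to library depth by TMM) and 3T3-L1 88120, 117500 and 146800 (lowest, median, highest). The groups did not overlap, and the log2 difference was -1.21 ± 0.30 (SE, edgeR adjusted p = 0.0102). Captured sites, counted here without thinning, did not show these losses. Of the 36 sites of that window, 34 were captured in B cells and 33 to 34 in 3T3-L1. In the other 6 windows the B cell counts of captured sites, 17 to 29, lay within the 3T3-L1 range, and no window of the 7 passed when captured sites were tested in place of reads (edgeR adjusted p of 0.727 to 0.899). Most sites of these windows were captured in every library, which leaves counts of captured sites less room to differ than reads. The calls at 114.9, 115.2, 115.6 and 115.7 Mb were lost without day 0 replicate 1, day 1 replicate 1 or day 1 replicate 2, that at 115.6 Mb also without day 2 replicate 2, and those at 114.7, 114.8 and 115.8 Mb passed without any 1 library.

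The site with the most B cell reads in that window, at chr6:115225247-115225252 and 144.0 kb from the bait, had 48.4 of every 10000 chromosome 6 reads in B cells. In 3T3-L1 it had 99.1, 125 and 134 (lowest, median, highest), so the groups did not overlap.

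The 3 higher windows lie together at 113.8 to 113.9 and 114.0 to 114.2 Mb, beyond the lower windows of the low side. At 114.1 Mb B cells had 7568 CPM and 3T3-L1 1574, 2367 and 3426 (lowest, median, highest), with no overlap. Without thinning, B cells captured 29 of its 31 sites and 3T3-L1 libraries 18 to 30. Leaving each library's strongest site out of every window moved the median log2 difference of all tested windows from 0.06 to -0.21, and the 3 higher windows and the 7 lower windows near the bait moved downward too. None of the 3 higher windows then passed (log2 differences of 1.11 to 1.47, edgeR adjusted p of 0.112 to 0.291), and the 7 lower ones did (adjusted p of 0.00189 to 0.0205). On captured sites none of the 3 passed either (log2 differences of -0.05 to 0.13, edgeR adjusted p of 0.912 to 0.993). Those counts were not thinned, and most 3T3-L1 libraries were deeper, so captured sites at equal depth were not tested in these windows. The call at 114.0 Mb was also lost without either library of day 0 or of day 1, or without day 2 replicate 1.

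**Figure D3:**
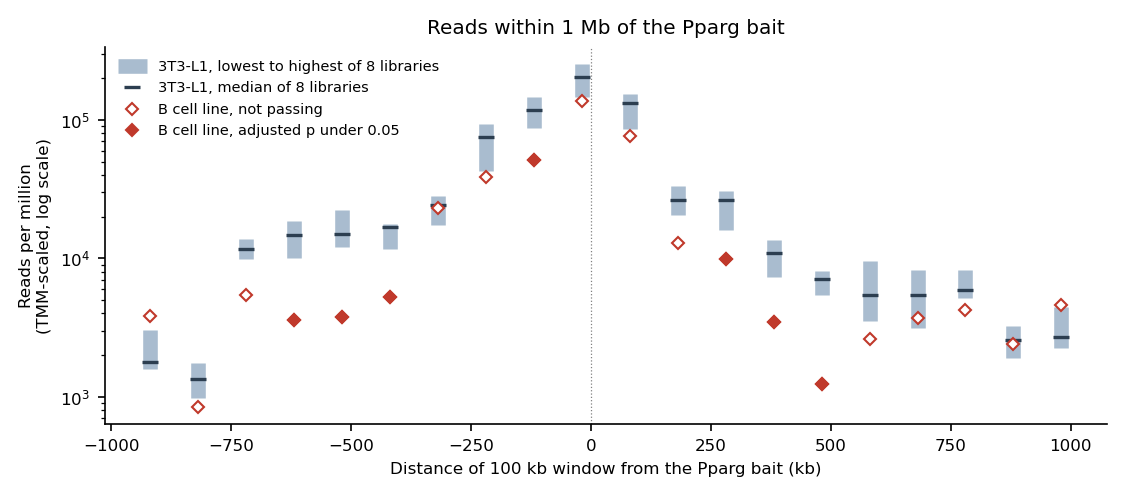
CPM (TMM-scaled, log scale) in the 20 windows of 100 kb nearest the Pparg bait, by distance in kb. Bars span the lowest to the highest of 8 3T3-L1 libraries, dashes are their median, and diamonds are the B cell library, filled in the 7 windows with an edgeR adjusted p under 0.05, all of them below the bars.

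A pair of named windows lies far from the bait. At 36.7 to 36.8 Mb, on the low side, the B cell library had 1 read and 3T3-L1 84.9, 547 and 942 CPM (lowest, median, highest), or 3 to 29 captured sites of 43. Captured sites of these far windows were counted without thinning. The ratio of 3T3-L1 to B cell CPM was 84.6 with a 95% counting interval of 15.2 to 3340, and the window passed (edgeR adjusted p = 0.0124), also on captured sites (adjusted p = 0.00214). At 129.1 to 129.2 Mb, on the high side, B cells had 125 CPM and 3T3-L1 679, 1445 and 1870, with no overlap (log2 difference -3.51 ± 0.83, edgeR adjusted p = 0.00519). On captured sites that window did not pass (log2 difference -1.55, edgeR adjusted p = 0.0679), with 5 sites in B cells and 5 to 21 in 3T3-L1. The nearby window at 128.5 to 128.6 Mb had the smallest p of the high side in the higher direction but did not pass (737 CPM in B cells, 5.19 to 170 in 3T3-L1, edgeR adjusted p = 0.15). It did pass on captured sites, with 16 in B cells and 1 to 14 in 3T3-L1 (log2 difference 1.87, edgeR adjusted p = 0.015), and on reads scaled by library totals (adjusted p = 0.016).

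Windows of 1 Mb, tried after the data were seen, showed how the differences were arranged along the chromosome. Of 147 windows, 12 were higher in B cells (8.16%) and 24 lower (16.3%) by edgeR on reads. On the low side, 9 of the 20 windows nearer than 20 Mb were higher and 1 lower, while of the 52 windows over 60 Mb away 0 were higher and 14 lower. Between 20 and 60 Mb, 0 of 40 were higher and 3 lower, and on the high side 3 of 35 were higher and 6 lower. Scaling by library totals instead of TMM moved the median log2 difference from -0.08 to 0.42 and gave 35 higher and 15 lower, and all 12 and all 24 windows kept their direction under it, of which 12 and 15 passed.

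Tests of captured sites, in which each site counts once however often it was read, shared most of these calls. Of the 12 higher windows 11 were also higher, and of the 24 lower windows 21 also lower, in a test of captured sites at B cell depth, which called 44 higher (30.1%) and 36 lower (24.7%) of 146. With equal numbers of captured sites 14 of 128 windows were higher (10.9%) and 18 lower (14.1%), and these shared 9 higher and 14 lower windows with the test of reads. In no pair of these tests was a window called in opposite directions. The tests were scaled by TMM, so a lower call need not be a lower captured share. Of the 52 windows over 60 Mb away, the captured share at B cell depth lay below all 8 libraries in 0 and above all 8 in 10. HindIII sites were about as dense in higher windows (median 336 per window) as in lower (317) and other windows (328).

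**Figure D4:**
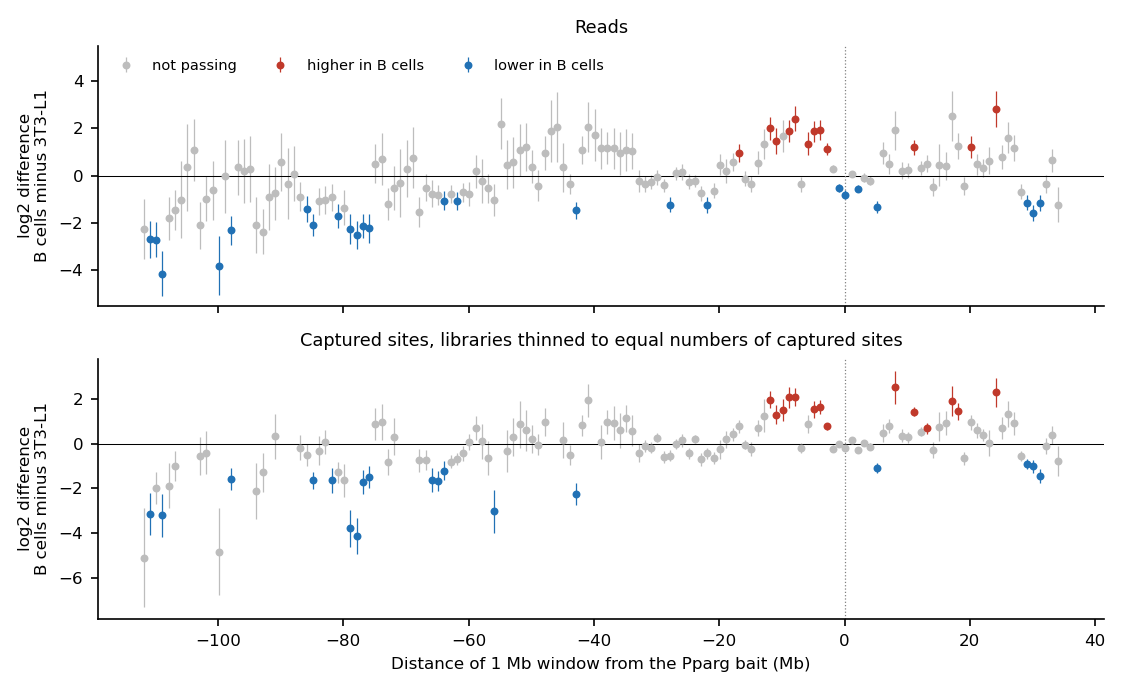
log2 difference between B cells and 3T3-L1 in 1 Mb windows of chromosome 6 by distance from the Pparg bait in Mb, on reads (top) and on captured sites with libraries thinned to equal numbers (bottom). Bars are standard errors from edgeR, and colour marks windows with an adjusted p under 0.05: 12 higher and 24 lower at the top, 14 higher and 18 lower at the bottom.

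Adjoining windows often shared a call. Runs of at least 3 neighbouring 1 Mb windows with the same call by captured sites at B cell depth numbered 12, 7 higher and 5 lower. Their values are a description, as the runs were picked by the same contrast. All 7 higher runs lay above all 8 3T3-L1 libraries in share of reads, in captured sites at B cell depth and in captured sites at equal numbers. All 5 lower runs lay below all 8 in share of reads, 4 of 5 did at equal numbers of captured sites, and 0 of 5 did at B cell depth, where B cells had captured more sites in all.

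The longest run within 20 Mb was that from 101 to 108 Mb, 7.37 Mb away at its nearest. It held 2.59% of B cell reads on chromosome 6 against 0.336%, 0.716% and 0.934% in 3T3-L1 (lowest, median, highest). Of its 2377 sites 26.4% were captured in B cells and 2.74%, 4.87% and 12% in 3T3-L1 at B cell depth. In 3T3-L1 the run was a trough: per site it was captured at 0.186 to 0.408 of the rate of the 10 Mb next farther from the bait, and in B cells at 0.780 of it. The run from 109 to 112 Mb, nearer to the bait, held 1.55% of reads in B cells against 0.154%, 0.343% and 0.589%.

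On the high side the run from 138 to 143 Mb showed the same form, with 23.3% of its sites captured in B cells and 3.14%, 4.90% and 9.52% in 3T3-L1. Chromosome 6 ends at 149516111, so less than 10 Mb lies beyond this run. Its ratio to that remainder was 0.893 in B cells and 0.162 to 0.395 in 3T3-L1. The remainder includes the run from 143 to 147 Mb, called lower in B cells, so the ratio is not separate from that call. The run from 143 to 147 Mb was a peak in 3T3-L1, at 1.56 to 2.93 times the rate of the short stretch left beyond 147 Mb. In B cells its ratio was 1.22. It held 1.25% of B cell reads against 1.45%, 1.91% and 2.22%. On the far low side the run from 36 to 40 Mb held 0.239% of reads in B cells against 0.629%, 0.748% and 1.12%, and its ratio was 0.843 against 1.32 to 1.68. Of the 11 runs with such a ratio, B cells lay above all 8 in 6 of 7 higher runs and below all 8 in 3 of 4 lower runs. The exceptions were the runs from 121 to 124 Mb (0.894 against 0.559 to 0.902) and from 29 to 32 Mb (3.60 against 2.45 to 7.69). Computed on reads per site, the ratio lay outside the range in 5 of 7 higher and 2 of 4 lower runs.

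Day 0 and later 3T3-L1 libraries differed in some of the same places, by less than B cells did. The run from 101 to 108 Mb held 0.336% and 0.392% of reads in the day 0 libraries and 0.584% to 0.934% in the 6 later ones. That from 109 to 112 Mb held 0.154% and 0.167% at day 0 and 0.309% to 0.589% later. In the run from 36 to 40 Mb the day 0 values of 1.12% and 1.05% were the highest and later ones ran from 0.629% to 0.974%. In each of these 3 runs the later libraries lay between day 0 and the B cell line, which is a description. All runs were picked by the contrast with B cells, whose share of reads lay beyond all 8 libraries. The runs from 121 to 124 and 138 to 143 Mb had the same order, and the others did not. That from 73 to 82 Mb held 0.378% and 0.419% at day 0 and 0.269% to 0.592% later. The change over days was not tested here.

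Over the whole chromosome, the B cell profile followed distance from the bait more closely and the 3T3-L1 profiles less. Correlations here are Spearman's, over the captured share of 1 Mb windows more than 1 Mb from the bait at B cell depth; they describe windows that share libraries and neighbours, and have no p. Against distance the B cell value was -0.87 over the 112 windows of the low side, where 3T3-L1 libraries had -0.53 to -0.29. On the high side (34 windows) it was -0.57 against -0.39 to -0.24. With equal numbers of captured sites the B cell values were -0.81 and -0.61.

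The 3T3-L1 libraries resembled each other, at 0.898 to 0.972 over 146 windows, and the B cell library had 0.663 to 0.831 with them. Over the whole chromosome its lowest values were with the day 0 libraries (0.663 and 0.708), and it had 0.765 to 0.831 with the 6 later ones. The low side alone gave 0.640 to 0.805, lowest with day 0 replicate 1. The high side gave 0.729 to 0.806, lowest with day 6 replicate 1, so the order of days did not hold there.

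The other baits of the series gave further profiles of chromosome 6, from libraries of their own (the labels do not say whether they share chromatin with those of Pparg): Lpin1, which encodes a lipid phosphatase of fat synthesis, lies on chromosome 12, and Ifng, the interferon gamma gene, on chromosome 10. Pparg libraries of 3T3-L1 cells had correlations of 0.676 to 0.849 with the Lpin1 bait's captured share of chromosome 6 in 3T3-L1 cells. The B cell Pparg library had 0.304 with the same profile. With the Ifng bait's profile in B cells the order was turned, at 0.495 for B cells and 0.141 to 0.313 for 3T3-L1. That order held on the low side (0.451 against 0.054 to 0.22) and not on the high side. There the B cell library had 0.149, inside the 3T3-L1 range of 0.112 to 0.151, and at equal numbers of captured sites it lay below all 8 (-0.0050 against 0.117 to 0.156). With the Ifng profile in 3T3-L1 it was 0.130 against -0.35 to -0.15. Over the whole chromosome, in each of these profiles and in that of Lpin1 in B cells (0.134 against 0.456 to 0.652), the B cell library lay outside the range of all 8.

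**Figure D5:**
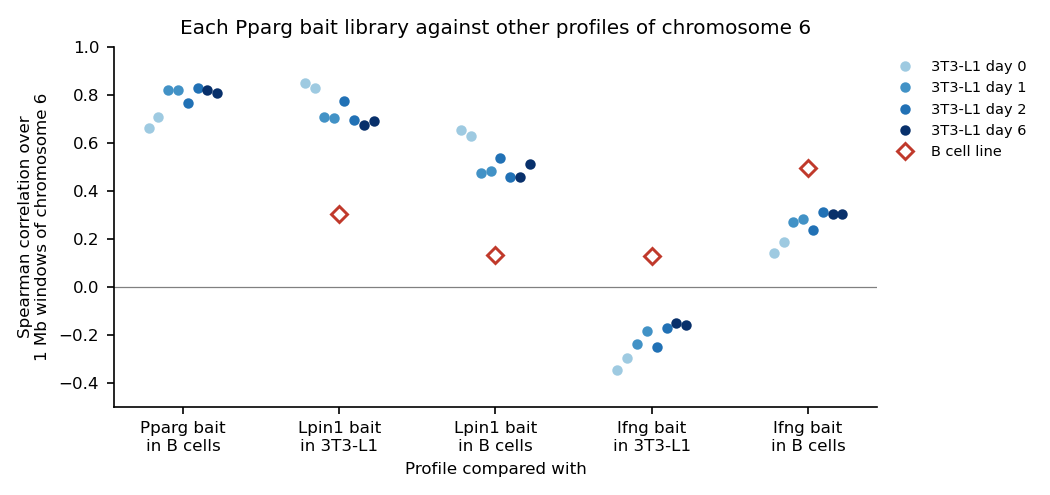
Spearman correlation of each Pparg bait library with other profiles of chromosome 6, over 146 windows of 1 Mb. Circles are the 8 3T3-L1 libraries, coloured by day, and the open diamond is the B cell library, which lies below the circles for the Lpin1 profiles and above them for the Ifng profiles.

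The windows called higher and lower on the Pparg bait differed from each other as seen from the other baits. This is a description, as the windows were picked by a contrast with the 3T3-L1 Pparg libraries. Those libraries had correlations of 0.676 to 0.849 with the Lpin1 profile in 3T3-L1 and of -0.35 to -0.15 with the Ifng profile. Part of the difference may therefore follow from how the windows were picked. In 3T3-L1 cells the 12 higher windows were captured by Lpin1 at a median of 0.229 to 0.709 times the mean of chromosome 6, and the 24 lower windows at 1.47 to 2.03 times. From Ifng it was the reverse, with 1.74 to 2.07 times for the higher and 0.502 to 0.615 times for the lower windows. The 111 windows that were not called had 0.514 to 0.925 times from Lpin1, which overlaps the higher windows, and 0.698 to 0.885 times from Ifng. By the median of the 8 libraries, 11 of the 12 higher windows lay below the mean from Lpin1 and 11 above it from Ifng. Of the 24 lower windows, 23 lay above it from Lpin1 and 23 below it from Ifng. Of the 111 windows not called, 66 lay below it from Lpin1 and 73 below it from Ifng. Of the same 12 higher windows, B cells lay above all 8 libraries in 1 with the Lpin1 bait and in 2 with the Ifng bait. Over all 147 windows the shares above all 8 were 7.48% for Lpin1 and 19.7% for Ifng. Of the 24 lower windows, B cells lay below all 8 in 5 with Lpin1 (9.52% over all windows) and in 2 with Ifng (25.2%). With Ifng, B cells lay above all 8 in 8 of the 24 lower windows, beside 19.7% over all windows, and their median of 0.723 in B cells lay above the 0.502 to 0.615 of 3T3-L1. With Lpin1 the median of the 24 lower windows was 1.465 in B cells, just below the 1.47 to 2.03 of 3T3-L1.

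On other chromosomes no single window passed the test between B cells and 3T3-L1. Windows entered it with a mean of at least 3 captured sites over 9 libraries, 8 of them 3T3-L1. Windows captured in B cells alone were thus unlikely to be tested. Chromosome 6 held 82.6% of B cell reads (Wilson interval 82.4% to 82.9%) and 67.9%, 74.1% and 80.9% of 3T3-L1 reads, so fewer were left elsewhere. Of 775745 sites on other chromosomes 0.969% were captured in B cells (Wilson interval 0.947% to 0.991%) and 0.422%, 1.03% and 1.83% in 3T3-L1 at B cell depth, which overlapped. Of 776 windows of 500 kb tested on captured sites, 0 were higher (0.0%) and 0 lower (0.0%) by edgeR's quasi-likelihood test after adjustment; 70 had an unadjusted p under 0.05, and DESeq2 also called 0. The smallest p in the higher direction was at chr8:126500001-127000000, with 10 of 125 sites captured in B cells (8.0%) and 0%, 4.04% and 6.51% in 3T3-L1 (edgeR adjusted p = 0.127). Leaving out day 1 replicate 1 gave 2 called windows, and leaving out day 1 replicate 2 or day 2 replicate 1 gave 1, with that window among them each time. In the lower direction it was at chr16:30500001-31000000, with 0 of 143 sites in B cells, which allows up to 2.10%, against 0.924%, 2.46% and 6.55% (edgeR adjusted p = 0.362).

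The order of the most captured windows nevertheless differed. Of the 50 leading windows of the B cell library, among 4849 ranked, 3 were among the 50 leading windows of 3T3-L1, while a single 3T3-L1 library shared 9, 19 and 24 (lowest, median, highest) with the remaining ones. Of the 5 leading windows 1 was shared, chr10:117000001-117500000, with 8.11% of 148 sites captured in B cells and 10.8%, 21.9% and 26.4% in 3T3-L1. Its neighbour chr10:116500001-117000000 ranked second in 3T3-L1 (6.80%, 15.6% and 18.6%) and 184 in B cells (3.40%). The B cell values lay below all 8 in both windows, and neither passed (edgeR adjusted p of 0.505 and 0.362). At chr4:139500001-140000000 B cells captured 8 of 113 sites (7.08%) and 3T3-L1 0.247%, 1.67% and 1.88%, without overlap; it held too few captured sites for the test.

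Captured sites were divided among whole chromosomes in other proportions. The number of copies of each chromosome in either line was not measured, and its part in these shares was not tested. Relative to all other chromosomes of the same library, the B cell library's captured share lay outside the range of all 8 in 10 of 20 chromosomes (50%). It was above on chromosomes 4, 9, 12, 14, 16 and Y and below on 5, 8, 13 and 19. Chromosome 19 had 1.13 times the mean in B cells and 1.28, 1.59 and 1.80 times in 3T3-L1. Chromosome 4 had 1.04 times against 0.774, 0.852 and 0.902. Chromosome Y stood farthest apart, with 13 of its 855 sites captured in B cells and 0 to 4 in 3T3-L1. The Lpin1 and Ifng baits captured 18 and 12 of its sites in B cells and at most 1 and 4 in 3T3-L1, so this difference goes with the cell lines under every bait. The leading B cell window of all, chrY:2500001-3000000, had 7 of 82 sites captured in B cells and 0 in all 8 3T3-L1 libraries.

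Across 450 windows of 5 Mb on other chromosomes the same order of profiles appeared as on chromosome 6. The 3T3-L1 libraries had Spearman correlations of 0.751 to 0.929 with each other and 0.672 to 0.730 with the B cell library. With the Ifng bait in B cells the B cell library had 0.698 and 3T3-L1 libraries 0.439 to 0.499. With the Lpin1 bait in 3T3-L1 cells it had 0.621, and they had 0.725 to 0.861.

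The change between the lines was then set against that of the other baits, window by window, in a fit of all 27 libraries over 863 windows outside chromosomes 6, 10 and 12. The difference between B cells and 3T3-L1 departed from that of the Ifng bait in 4 windows, 3 upward (0.348%) and 1 downward (0.116%), and from that of Lpin1 in 0 (0.0%). At chr17:85500001-86000000 the Pparg bait had captured 7 sites in B cells and a mean of 1.25 in 3T3-L1, and the Ifng bait 2 and a mean of 8.75 (edgeR adjusted p = 0.0345). At chr1:182500001-183000000 the Pparg bait had captured 1 site in B cells and a mean of 7.25 in 3T3-L1, and the Ifng bait 8 and a mean of 2.13 (edgeR adjusted p = 0.0345). In the 4 windows no group of libraries had a mean above 11.75 captured sites. Windows entered the fit with a mean of at least 3 captured sites over all 27 libraries. In the 3 upward windows the higher 3T3-L1 mean was that of Ifng, and in the downward one that of Pparg. With 8 3T3-L1 libraries per bait, such a mean can carry a window past the filter. The part of this filter in the direction of the calls was not tested.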

How the data were processed

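The authors deposited counts, whole numbers of reads at each HindIII site with no normalisation, in 1 file per library. The submitters' processing notes name Bowtie and the build mm9. Its version, and how reads were filtered or PCR copies removed, are not given in the sources used here, and copies of a ligation product cannot be told from separate ones. For each bait the site of highest count marked the bait, and sites within 10 kb of it were dropped.

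Reads of chromosome 6 were summed over 100 kb windows that passed filterByExpr. On other chromosomes, libraries were thinned without replacement to the B cell library's reads outside the bait zone (the 2 shallower ones stayed whole), and captured sites were summed over 500 kb windows with a mean of at least 3. The test was that of edgeR 4.0.16 under R 4.3.3 (robust quasi-likelihood fit, TMM, 5 groups, B cells minus the mean of the days) at an adjusted p of 0.05. The functions were tested on simulated counts. Single shares were compared by exact permutation in NumPy 2.4.6 under Python 3.11.15, and Wilson intervals came from SciPy 1.17.1.

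Libraries entered by their bait label; the comparison, windows and lists were chosen with earlier results of these data known. Windows named are, for each side and direction, up to 5 by smallest p among those passing with B cells beyond all 8 libraries, or else the smallest p as not passing; on other chromosomes also the 5 most captured in each line. Alternatives were DESeq2 1.42.0, library totals, no filter, other windows and bait zones, captured sites, thinning, no day 6, day 0 alone, the strongest site left out, a replicate block and leaving out each library. The 1 Mb windows, their runs, equal numbers of captured sites and equal chromosome 6 reads were added after the data were seen. No genome or annotation of mm9 was used, so windows are given without genes.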

Additional observations from a re-analysis of the deposited data

Results flagged for a closer look

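The fit of all 3 baits singled out 4 windows of 500 kb on other chromosomes in which the difference between B cells and 3T3-L1 departed from that of the Ifng bait. The difference of differences, Pparg minus Ifng on the log2 scale, was 6.30 ± 1.56 (SE) at chr15:95000001-95500000 (edgeR adjusted p = 0.0345), where the Pparg bait captured 4 sites in B cells and 0 in all 8 3T3-L1 libraries. As those libraries are at 0, the size of that value depends on edgeR's prior count. It was 5.37 ± 1.46 at chr5:126500001-127000000 (edgeR adjusted p = 0.0497), with 4 Pparg sites in B cells and a mean of 0.25 in 3T3-L1. It was 5.03 ± 1.31 at chr17:85500001-86000000 and -5.00 ± 1.29 at chr1:182500001-183000000 (edgeR adjusted p = 0.0345 for both). The Ifng bait captured 4 sites of the chr15 window in B cells and a mean of 10.25 in 3T3-L1. In the chr5 window it captured 5 in B cells and a mean of 11.75 in 3T3-L1. Without thinning to a common depth 1 window was called. Windows entered by their mean over all 27 libraries, which a high 3T3-L1 mean of 1 bait can carry. The part of that filter in the calls was not tested.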

How the results depend on the processing

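Of 1376 windows of 100 kb, 12 were called as reported. Other settings gave 25 (DESeq2), 27 (library totals), 0 (50 kb windows), 22 (200 kb), 42 (captured sites, not thinned), 33 (without day 6) and 3 (sites over 1 Mb away only). In 1 Mb windows they gave 36 (reads), 80 (captured sites at B cell depth) and 32 (equal numbers of captured sites). Leaving out 1 library gave 7 to 28 (7 without day 0 replicate 1 or day 1 replicate 2, 28 and 25 without day 6 replicates 1 and 2). The 36 windows of 1 Mb became 30 to 46 without 1 library, 41 with DESeq2 and 50 with library totals. The 0 windows of other chromosomes became 1 with library totals, no filter, 1 Mb windows or thinning to the shallowest library, and 0 to 2 without 1 library. The B cell library has no replicate number and so no pair; with a replicate block among the 3T3-L1 libraries the counts were 18, 36 and 0. The 4 windows that departed from Ifng became 1 without thinning and 24 in 1 Mb windows; the 0 from Lpin1 stayed 0. The same-chromosome share was 8.37 percentage points higher in B cells, 7.46 to 9.32 without 1 library and 19.8 with a 1 Mb bait zone. The low-side difference of -1.42 points was -1.57 to -1.26 without 1 library and -0.29 with that zone. The difference in captured sites elsewhere, -0.06 points, was -0.14 to 0.06 without 1 library, -1.09 without thinning and -0.97 at 2 reads per site. The captured share of chromosome 6 was 7.66 points higher in B cells, 6.73 to 8.58 without 1 library and 4.41 at equal chromosome 6 reads. The window at 113.8 Mb, higher on reads, had a log2 difference of -0.050 on captured sites without thinning. These causes were not tested.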
